A study of Sus scrofa with 6 samples.

Results

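MiR-451, miR-144 and miR-486 are the microRNAs (miRNAs) best known from red blood cells, and they are described here as a gauge of how much erythroid RNA each fetal muscle library held. They were taken by name: every listed miRNA whose first name began with ssc-miR-451, ssc-miR-144 or ssc-miR-486, whichever arm of the hairpin it came from. This gave 6 of the 1143 listed miRNAs, namely both arms each of miR-451, miR-144 and miR-486-2, listed as ssc-miR-451-5p, ssc-miR-486-2-5p and so on and written below without the prefix. The libraries were small RNA from the longissimus dorsi, the long muscle of the back, of 3 Meishan (MS) and 3 Large White (LW) pigs. The labels describe MS as the obese and LW as the lean breed, and no animal carried a treatment or an engineered allele. The study's methods describe untreated female fetuses at 35 days post-conception, each from a different sow, so that a library was 1 animal. The sample labels instead describe adults of 2 years, and the samples were grouped here by breed, on which both sources give the same assignment.

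The genes of miR-144 and miR-451 lie side by side and are transcribed together under GATA1, the main transcription factor of the red cell lineage in mouse and human. MiR-451 is unusual in that its hairpin is too short for Dicer and is instead cut by Argonaute 2, as shown in mouse and zebrafish, so that nearly all of the mature miRNA comes from the 5p arm. MiR-486 is abundant in red cells too, but its gene sits in the ankyrin 1 gene (ANK1), which is active in skeletal and heart muscle as well as in erythroid cells, so that muscle fibers are a second known source of it.

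The sequences of the 6 arms are shown because their base composition and seeds bear on the comparison of the breeds. They are the consensus sequences of the deposited table, written as DNA from 5′ to 3′, and the capitals mark the seed, bases 2 to 8, by which a miRNA recognises most of its targets.
miR-451-5p: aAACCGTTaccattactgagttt
miR-451-3p: aTGGTAACggttctcttgctgt
miR-144-3p: tACAGTATagatgatgtact
miR-144-5p: gGATATCAtcatatactgtaagt
miR-486-2-5p: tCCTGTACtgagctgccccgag
miR-486-2-3p: cGGGCCAGctcagtacccggcgt
No seed was shared between any pair of the 6 arms. They also fell apart in base composition. The GC content was 34.8% in miR-451-5p, 30% in miR-144-3p and 30.4% in miR-144-5p, against 63.6% in miR-486-2-5p and 73.9% in miR-486-2-3p.

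The hairpins are shown with the arms in capitals, because the short miR-451 hairpin and a further listing over mir-144 bear on how the arms were counted.
mir-451: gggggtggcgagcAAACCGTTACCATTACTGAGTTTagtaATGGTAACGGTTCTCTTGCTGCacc
mir-144: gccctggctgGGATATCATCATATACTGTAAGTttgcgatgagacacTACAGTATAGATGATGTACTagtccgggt
mir-486-2: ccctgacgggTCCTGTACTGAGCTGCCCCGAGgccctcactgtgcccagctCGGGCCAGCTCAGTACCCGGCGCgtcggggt
PC-15: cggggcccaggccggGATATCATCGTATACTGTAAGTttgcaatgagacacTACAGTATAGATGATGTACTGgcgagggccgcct
Only 4 bases separated the listed arms in the mir-451 hairpin, against 14 in mir-144 and 19 in mir-486-2. On the Sscrofa 10.2 genome build, the authors' hairpin tables place mir-144 on the plus strand at chr12:47176951-47177050 and mir-451 on the same strand at chr12:47177112-47177182, with 61 bases between them. The tables place mir-486-2 on the minus strand at chr17:12191209-12191345, where no other listed hairpin lay within 10000 bases on either side. These positions span 71 bases for mir-451, 100 for mir-144 and 137 for mir-486-2. The hairpins shown are 65, 76 and 82 bases long, so positions and sequences do not match in length. The gap of 61 bases is between the listed positions. RefSeq names a pig miR-486 gene, MIR486-1, inside ANK1, and it was not established here that this is the same locus. The listed 3p sequences differed from the hairpins at the last base, T22C in miR-451-3p and T23C in miR-486-2-3p, with positions counted from 1 at the 5′ end of the listed arm.

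A further hairpin of the table, PC-15, overlapped mir-144 by 80 bases at chr12:47176951-47177030. Over the 23 bases of miR-144-5p it differed by A11G, counted from the 5′ end of miR-144-5p, and over the 20 bases of miR-144-3p it was identical. Its 5p arm was found with 4 reads in MS1, 0 in MS2 and 3 in MS3, and its 3p arm with 4 reads in MS1 alone. None of its reads was found in an LW library, where a count of 0 allows up to 3 reads. By these coordinates PC-15 lay wholly inside mir-144, on the same strand and with the same start. The PC-15 hairpin shown has 85 bases and its coordinates 80, so this holds for the coordinates and not for the sequences shown. The listings thus cover the same locus, although their sequences differ, and reads of miR-144-3p match both. In MS1 the 4 reads of each PC-15 arm stood beside 1063 of miR-144-5p and 2235 of miR-144-3p. In MS3 the 3 reads of its 5p arm stood beside 77 of miR-144-5p. Reads assigned to PC-15 were not added to any value below.

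Levels are given as normalized reads, the reads of a miRNA's most abundant sequence scaled by the authors to the mappable reads of the library. Whole reads could be recovered from them, from 1038986 reads in MS3 to 3419270 in LW2 over all listed miRNAs, and 1 read was worth between 0.720 and 1.69 normalized reads. The summed normalized reads were 2037615 ± 304575 in MS and 2745532 ± 188965 in LW (SD, n = 3 each). Breeds were compared with limma on the log2 of these levels plus 1, in the 548 miRNAs whose mean reached 10 in MS or in LW, and a difference was called at a Benjamini-Hochberg adjusted p under 0.05. Fold changes are therefore on the log2(value + 1) scale, MS over LW. Of the 6 arms, 4 passed the filter, each of them in both breeds, and miR-451-3p and miR-486-2-3p stayed below it.

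Both arms of miR-144 and the 5p arm of miR-451 were higher in Meishan than in Large White muscle, and miR-486-2-5p was not called in either direction. Of the 4 arms tested, 3 were called higher in MS. Over all miRNAs tested 62.2% were called, 34.1% as higher and 28.1% as lower in MS, so that a call by itself set the 3 arms little apart from the rest of the table. The breeds did not overlap in the same 3 arms, which lay above LW in every MS library. Over all tested the breeds did not overlap in 67.7%, and 36.7% lay above LW in every MS library.

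MiR-451-5p, the Dicer-independent miRNA of the cluster, had 4239, 2201 and 1374 normalized reads in MS1, MS2 and MS3, against 412, 386 and 310 in LW1, LW2 and LW3. Every MS library was above every LW library, and the lowest MS value was 3.33 times the highest LW value. MS1 stood highest and MS3 lowest of the Meishan libraries, while the LW libraries lay close together. The mean was 2605 ± 1475 in MS and 369 ± 53.2 in LW (SD, n = 3 each), which placed miR-451-5p at rank 99 of the listed miRNAs in MS and at rank 196 in LW. The log2 fold change was 2.67 with a standard error of 0.38 and a 95% interval of 1.85 to 3.50 (limma, adjusted p = 8.55e-05). In bulk tissue, fewer cells of a type and less RNA per cell cannot be told apart.

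MiR-144-3p, the arm usually taken as the functional strand of miR-144, had 1608, 631 and 217 normalized reads in MS1, MS2 and MS3, against 123, 33.4 and 57.5 in LW1, LW2 and LW3. The breeds did not overlap, but MS3 came within 1.76 times LW1. The mean was 819 ± 715 in MS and 71.2 ± 46.3 in LW (SD, n = 3 each), so that the spread among the Meishan fetuses was nearly as large as their mean. The log2 fold change was 3.27 with a standard error of 0.64 and a 95% interval of 1.87 to 4.66 (limma, adjusted p = 0.000873). MS1 and MS3 pulled this estimate in opposite directions, since it was 2.56 without MS1 and 4.0 without MS3, called in both cases. The call was lost with a correction for GC content, described below, which gave 1.11 (limma, adjusted p = 0.153).

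MiR-144-5p, the opposite arm of the same hairpin, had 765, 323 and 130 normalized reads in MS1, MS2 and MS3, against 81.4, 88.7 and 54.8 in LW1, LW2 and LW3. Again MS1 stood highest and MS3 lowest of the Meishan libraries, and MS3 held 1.47 times the level of LW2, the highest of Large White. The mean was 406 ± 325 in MS and 75.0 ± 17.8 in LW (SD, n = 3 each). The log2 fold change was 2.10 with a standard error of 0.53 and a 95% interval of 0.95 to 3.26 (limma, adjusted p = 0.00433). It was 1.47 without MS1 and 2.74 without MS3, called in both cases. The call was lost with a correction for GC content, described below, which gave -0.0048 (limma, adjusted p = 0.992), and none of miR-451-5p, miR-144-3p and miR-144-5p passed the unadjusted equal-variance test that the study's methods describe.

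MiR-486-2-5p, the arm shared by red cells and muscle, had 4147, 2948 and 6103 normalized reads in MS1, MS2 and MS3, against 2891, 4061 and 3155 in LW1, LW2 and LW3. The breeds overlapped, and the Meishan library with the least miR-451 and miR-144, MS3, had the most miR-486-2-5p. The mean was 4399 ± 1592 in MS and 3369 ± 614 in LW (SD, n = 3 each), at rank 77 of the listed miRNAs in MS and rank 86 in LW. The log2 fold change was 0.34 with a standard error of 0.30 and a 95% interval of -0.32 to 0.99, which did not pass the test (limma, adjusted p = 0.336). The interval holds rises of up to 0.99, which 3 fetuses of each breed do not separate from 0. The estimate was 0.07 without MS3.

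**Figure D1:**
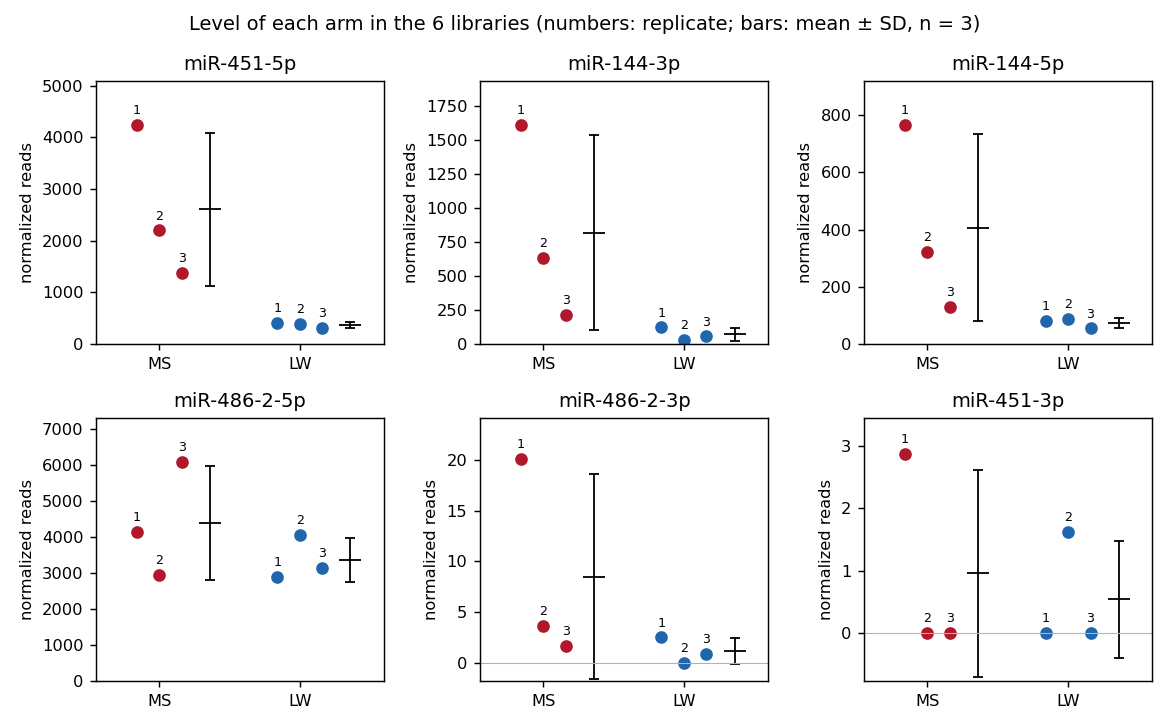
Normalized reads (vertical axes, linear, each panel with its own scale) of the 6 arms in the 3 MS and 3 LW libraries, numbered by replicate, with mean ± SD bars (n = 3 each). MiR-451-5p and both arms of miR-144 are highest in MS1 and lie above all LW libraries in each MS library, whereas miR-486-2-5p overlaps between breeds and is highest in MS3.

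The 2 arms below the filter were found in a few reads only. MiR-486-2-3p, the passenger arm of miR-486, had 28, 4 and 1 reads in MS1, MS2 and MS3, against 2, 0 and 1 reads in LW1, LW2 and LW3. These are 20.1, 3.67 and 1.69 normalized reads in MS and 2.51, 0 and 0.913 in LW, where the 0 of LW2 allows a level of up to 2.44 normalized reads, the value of 3 reads. The breeds overlapped, with MS1 alone standing out. MiR-451-3p was found with 4 reads in MS1 and 2 reads in LW2, and the other 4 libraries held none, which allows up to 2.75 normalized reads in MS2, 5.08 in MS3, 3.76 in LW1 and 2.74 in LW3. In a fit without the filter, the log2 fold change of miR-486-2-3p was 1.77 (limma, adjusted p = 0.0822) and that of miR-451-3p was 0.19 (limma, adjusted p = 0.829), and neither was called. The near absence of the 3p arm of miR-451 held in both breeds, with 4 reads against 9100 of the 5p arm in MS and 2 reads against 1142 in LW. Limits for a count of 0 and intervals of shares cover counting error only.

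Within the Meishan breed the cluster miRNAs varied more than most. The SD of log2 levels among the 3 MS libraries was 0.82 for miR-451-5p, 1.44 for miR-144-3p and 1.27 for miR-144-5p, against a median of 0.43 over all 548 tested miRNAs. Only 8 miRNAs had a larger SD than miR-144-3p and 15 a larger one than miR-144-5p, while 83 had a larger one than miR-451-5p. MiR-486-2-5p, with an SD of 0.53, was exceeded by 217. MS1 held 7.43 times as much miR-144-3p as MS3, 5.87 times as much miR-144-5p and 3.09 times as much miR-451-5p, but 0.68 times as much miR-486-2-5p. In log2 these are 2.89, 2.54, 1.62 and -0.56. The median log2 ratio of MS1 to MS3 moved with GC content over the table. It was 0.50 at a GC content of at most 36%, -0.27 at 60% or more and 0.19 over all tested. Among the LW libraries the SD was 0.22 for miR-451-5p, 0.93 for miR-144-3p, 0.37 for miR-144-5p and 0.25 for miR-486-2-5p, beside a median of 0.34. The spread of miR-144-3p in LW rests on 98, 41 and 63 reads in LW1, LW2 and LW3.

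As a gauge of blood content, the 4 arms of miR-451 and miR-144 were summed and divided by all normalized reads of the library. The share was 0.280% in MS1 (95% Wilson interval 0.274% to 0.286%), 0.158% in MS2 (0.153% to 0.164%) and 0.0979% in MS3 (0.0921% to 0.104%). In Large White it was 0.0243% in LW1 (0.0222% to 0.0265%), 0.0183% in LW2 (0.0169% to 0.0198%) and 0.0145% in LW3 (0.0132% to 0.0159%). No interval overlapped that of another library, so that counting error left the order of the 6 libraries in place, MS1 above MS2, MS3, LW1, LW2 and LW3. The mean share was 0.179 ± 0.0928% in MS and 0.0190 ± 0.00492% in LW (SD, n = 3 each), a ratio of 9.40, and the lowest MS share was 4.04 times the highest LW share. A two-sided exact permutation test gave p = 0.10, the smallest value that 3 fetuses against 3 can reach. The ratio was 6.74 without MS1 and 11.5 without MS3.

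The share of the miR-486-2 arms gave another order. It was 0.176%, 0.148% and 0.347% in MS1, MS2 and MS3, against 0.114%, 0.146% and 0.108% in LW1, LW2 and LW3. By this share MS3 held the most and LW3 the least. Every MS library lay above every LW library, unlike in normalized reads, but MS2 and LW2 lay next to each other. With all libraries scaled to equal sums, which is what a share does, the log2 fold change of miR-486-2-5p was 0.77 and was not called (limma, adjusted p = 0.0601), beside 3.11 for miR-451-5p. The 2 gauges thus placed MS3 differently, lowest of the Meishan libraries by the cluster and highest by miR-486.

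Ratios of arms within a library do not depend on how the libraries were scaled, and 4 of them were compared between breeds. They can still move with GC content, for which they were not corrected. MiR-486-2-5p was 0.978, 1.34 and 4.44 times miR-451-5p in MS1, MS2 and MS3, against 7.02, 10.5 and 10.2 times in LW1, LW2 and LW3. Every MS library lay below every LW library. These arms differ in GC content, 63.6% in miR-486-2-5p against 34.8% in miR-451-5p. After the GC correction described below, their log2 fold changes were 1.26 and 1.11. The log2 ratio was 0.85 ± 1.15 in MS and 3.18 ± 0.33 in LW (SD, n = 3 each), a difference of -2.34 (two-sided exact permutation p = 0.10, the smallest possible; 0.20 after adjustment over the 4 ratios).

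The arms of miR-144 and miR-451 kept closer to each other. MiR-144-3p was 0.379, 0.287 and 0.158 times miR-451-5p in MS1, MS2 and MS3, against 0.298, 0.0865 and 0.186 times in LW1, LW2 and LW3, and these ranges overlapped. The difference of log2 ratios was 0.59 (two-sided exact permutation p = 0.50; adjusted 0.50). MiR-144-5p was 0.180, 0.147 and 0.0948 times miR-451-5p in the MS libraries and 0.198, 0.230 and 0.177 times in the LW libraries. These overlapped only in that MS1 lay just above LW3. The difference was -0.57 (two-sided exact permutation p = 0.20, adjusted 0.27). With a pseudocount of 10 it was -0.66 (two-sided exact permutation p = 0.10, the smallest possible, before adjustment). With 3 libraries of each breed these values do not show that the ratios were equal.

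The balance of the arms of miR-144 leaned to the 3p arm in Meishan. MiR-144-3p was 2.10, 1.95 and 1.66 times miR-144-5p in MS1, MS2 and MS3, against 1.51, 0.376 and 1.05 times in LW1, LW2 and LW3. The breeds did not overlap, but MS3 and LW1 lay close together and LW2 stood apart from the other LW libraries with 41 reads of the 3p and 109 of the 5p arm. The log2 ratio was 0.92 ± 0.17 in MS and -0.24 ± 1.02 in LW (SD, n = 3 each), a difference of 1.16 (two-sided exact permutation p = 0.10; adjusted 0.20) that was 0.59 without LW2.

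**Figure D2:**
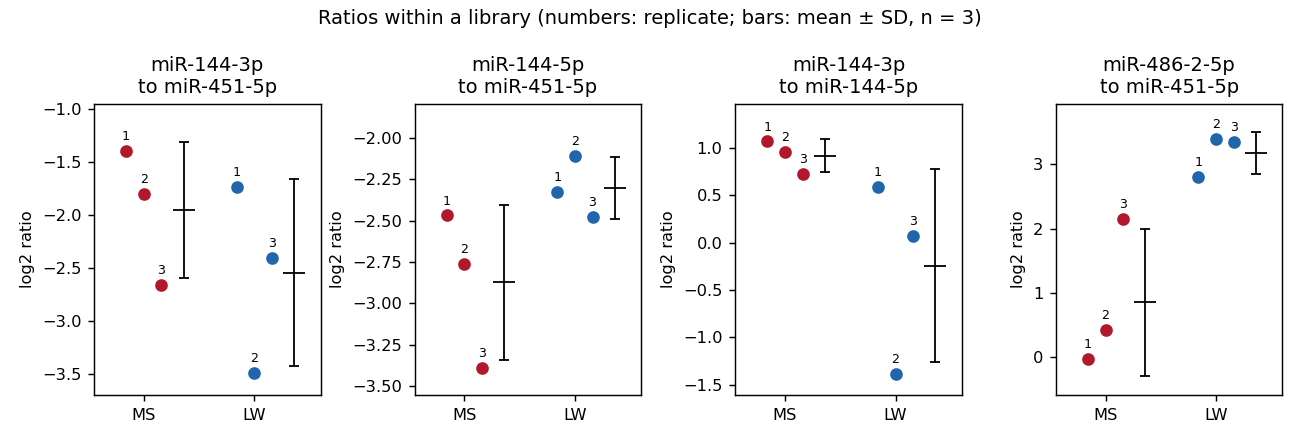
Log2 ratio of 2 arms within each library (vertical axes, pseudocount of 1), numbered by replicate, with mean ± SD bars (n = 3 each). The ratio of miR-486-2-5p to miR-451-5p is lower in every MS library than in any LW library and averages 0.85 in MS and 3.18 in LW. The ratios of miR-144 arms to miR-451-5p overlap between breeds, that of miR-144-5p only by MS1 and LW3. Ratios are not corrected for GC content.

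The breed difference of the whole table moved with base composition, which touches each of these values. Of the 65 tested miRNAs with a GC content of at most 36%, the range that holds miR-451-5p and both arms of miR-144, 53 were called higher in MS and 0 lower by limma, with a median log2 fold change of 2.21. At an unadjusted p under 0.05 there was 1 lower, as there was by edgeR and by DESeq2 after adjustment. Of the 105 with a GC content of at least 60%, the range of miR-486-2-5p, 16 were called higher and 41 lower, with a median of -0.58. Over all 548, 34.1% were called higher and 28.1% lower, and the median was 0.11. The 3 cluster arms were themselves among the 65. Beside the AT-rich median of 2.21, the log2 fold change of miR-144-5p (2.10) lay just below. That of miR-451-5p (2.67) lay above it and that of miR-144-3p (3.27) further above. The 95% interval of each held 2.21. The order MS1 above MS2 above MS3, with all of them above Large White, was found in 34 of the 65 AT-rich miRNAs (52.3%), in 5 of the 105 GC-rich ones (4.76%) and in 96 of all 548 (17.5%).

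When each library was corrected for GC content, by a loess curve of its deviations on the GC content of the listed sequence, the 4 arms changed places. MiR-451-5p stayed higher in MS with a log2 fold change of 1.11 (limma, adjusted p = 0.0191). MiR-144-3p kept a positive value of 1.11 but was no longer called (limma, adjusted p = 0.153), and it was called again with the replicate number as a block (limma, adjusted p = 0.0493). MiR-144-5p came to -0.0048 (limma, adjusted p = 0.992). MiR-486-2-5p was then called higher in MS, with a log2 fold change of 1.26 (limma, adjusted p = 0.00435). After the correction miR-451-5p and miR-486-2-5p thus had similar fold changes, whereas miR-144-5p lay below miR-486-2-5p, the other way round from the values before it. The source of the GC trend was not tested, and breed and any difference between the libraries in preparation cannot be told apart.

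**Figure D3:**
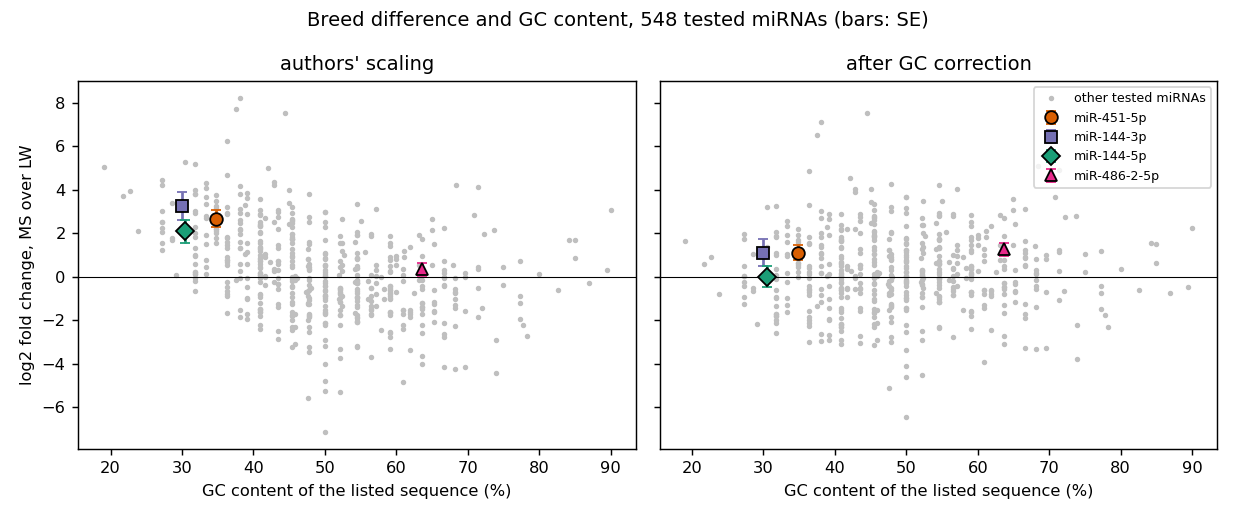
Log2 fold change, MS over LW (vertical axis), of the 548 tested miRNAs against the GC content of the listed sequence (horizontal axis, %), with the authors' scaling on the left and after the GC correction on the right. The 3 cluster arms sit among AT-rich miRNAs that are mostly higher in MS on the left and come down to values from -0.0048 to 1.11 on the right, where miR-486-2-5p is at 1.26 (bars are standard errors).

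Other miRNAs that are abundant in red cells did not move together. Of 11 on the list 9 were analysed here and all of these were tested, with 2 called higher in MS, 4 lower and 3 not called. Over all tested 34.1% were called higher and 28.1% lower, so that these counts among 9 miRNAs set the list little apart. The median log2 fold change of the 9 was -0.77, beside 0.11 over all tested. The most abundant, miR-92a-3p of the miR-17-92 cluster, averaged 56871 ± 22322 normalized reads in MS and 67500 ± 12287 in LW (SD, n = 3 each) and was not called (log2 fold change -0.31; limma, adjusted p = 0.359). MiR-16-5p, a miRNA of most tissues that restrains the cell cycle, averaged 16413 ± 1422 in MS and 4877 ± 416 in LW and rose, with a log2 fold change of 1.75 (limma, adjusted p = 4.12e-05). MiR-363-3p fell in MS with a log2 fold change of -1.80 (limma, adjusted p = 7.59e-05). The summed red cell list took between 2.87% and 5.99% of the MS libraries and between 2.90% and 3.53% of the LW libraries. Its highest value was in MS3, so these shares overlapped and did not follow those of miR-451 and miR-144. In every library miR-92a-3p made up most of this sum, with 80809 of 105282 normalized reads in MS3 and 78857 of 98291 in LW2. The overlap therefore describes miR-92a-3p more than the rest of the list, whose share without it is not given. Most of these miRNAs are made in many tissues, and their part from blood was not tested.

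Leukocyte miRNAs, which reach tissue with blood as well as in resident cells, were higher in Meishan in 4 of the 7 tested and lower in 0 by limma, with a median log2 fold change of 1.05, beside 34.1% higher, 28.1% lower and a median of 0.11 over all tested. Scaling to equal sums gave 6 of the 7 higher. None was lower at an unadjusted p under 0.05, or by edgeR or DESeq2. MiR-142-5p, a miRNA of the blood-forming lineages, had 1138, 820 and 575 normalized reads in MS1, MS2 and MS3, against 48.9, 44.7 and 46.6 in LW1, LW2 and LW3. This is the order of MS libraries seen in miR-451-5p. MiR-142-3p and miR-146b-5p shared it, whereas miR-155-5p, miR-146a-5p, miR-150-5p and PN-32-3p, the row of miR-223-3p, did not. The GC content of miR-142-5p was 33.3%, in the band where 52.3% of miRNAs had this order above Large White. MiR-146b-5p rose by a log2 fold change of 1.05 (limma, adjusted p = 0.0114), whereas miR-155-5p, of activated lymphocytes and macrophages, was not called (log2 fold change 0.75; limma, adjusted p = 0.0792). The leukocyte share was flat across the Meishan libraries, from 0.108% to 0.119%, against 0.0274% to 0.0354% in Large White, and so did not repeat the fall between MS1 and MS3 in the cluster share. After the GC correction 3 of the 7 were called higher and 1 lower.

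Of the endothelial pair, miR-126-5p rose with a log2 fold change of 2.61 (limma, adjusted p = 3.11e-05) and miR-126-3p was not called (log2 fold change -0.43; limma, adjusted p = 0.156). All 6 muscle miRNAs were called higher in MS, beside 34.1% of all tested, with a median log2 fold change of 1.62, beside 0.11, and summed levels of 65946 to 96651 normalized reads in MS and 19810 to 24647 in LW. MiR-133a-3p, the most abundant of them and a regulator of myoblast growth, averaged 53202 ± 10427 in MS and 14008 ± 2085 in LW (SD, n = 3 each). Under scaling by TMM or by median of ratios 5 of the 6 were called higher, and after the GC correction 4 were called higher and 1, miR-206-3p, lower. All 6 were present in every library of both breeds. With the authors' scaling and no GC correction, the called members were all higher in Meishan in the muscle, leukocyte and endothelial lists. In the red cell list they went both ways, 2 higher and 4 lower, as calls did over all tested (34.1% higher and 28.1% lower). The part of these lists in the difference of miR-451 and miR-144 was not tested.

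**Figure D4:**
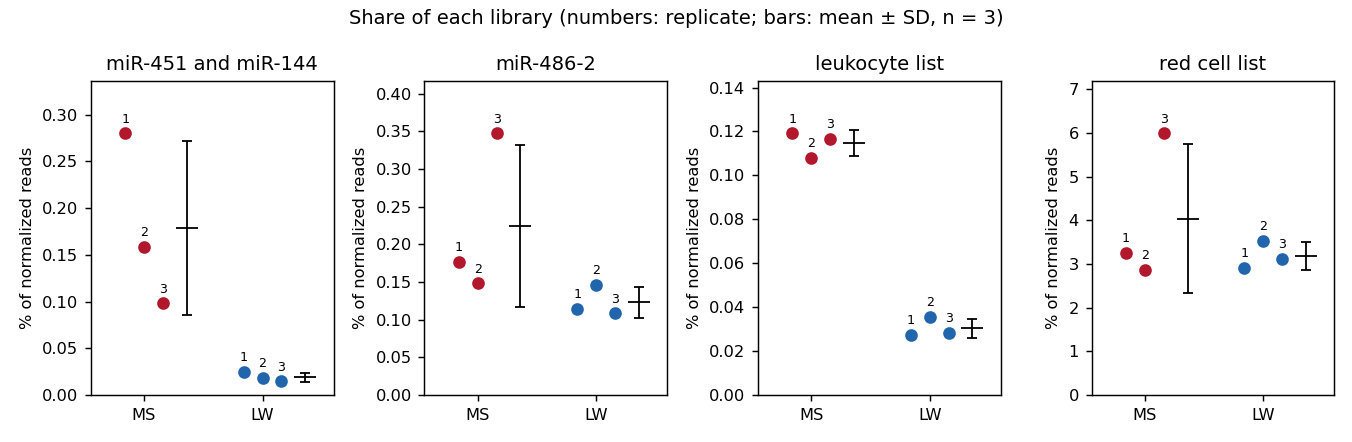
Share of all normalized reads (vertical axes, %, each starting at 0) taken by the 4 miR-451 and miR-144 arms, the miR-486-2 arms, the leukocyte list and the red cell list in each library, numbered by replicate, with mean ± SD bars (n = 3 each). The cluster share is 0.280%, 0.158% and 0.0979% in the MS libraries and at most 0.0243% in LW, the leukocyte share separates the breeds without such a spread in MS, the miR-486-2 share of MS2 (0.148%) is barely above that of LW2 (0.146%), and the red cell share, mostly miR-92a-3p, overlaps.

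The miRNAs whose pattern over the 6 libraries was most like that of miR-451-5p were not other members of the group. Likeness was the root mean square difference between log2 levels, each centred on its own mean, for which the median over all tested miRNAs was 1.43. The nearest were PN-74-5p (0.22), PN-73-3p (0.25), PN-18-3p (0.30), PN-65-3p (0.30) and miR-148b-5p (0.31), of which the first 4 are given in the authors' tables with the mammalian hairpins mir-660, mir-655, mir-147 and mir-539. PN-74-5p, for example, had 19333, 12316 and 7556 normalized reads in MS1, MS2 and MS3, against 2997, 2446 and 2093 in LW1, LW2 and LW3. MiR-144-5p followed at 0.41 with 14 miRNAs nearer, miR-144-3p at 0.70 with 89 nearer and miR-486-2-5p at 1.36 with 251 nearer. The nearest to miR-486-2-5p were miR-28-3p (0.096), miR-222-3p (0.16) and miR-132-3p (0.19), beside a median of 0.91, and miR-451-5p had 427 nearer. The GC content was 45.5%, 27.3%, 50%, 27.3% and 41.7% in the nearest to miR-451-5p, in the order given. It was 50%, 54.2% and 50% in the nearest to miR-486-2-5p. All patterns share the same 6 libraries, and the part of base composition in them was not tested, so this likeness is a description only.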

How the data were processed

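Small RNA of 18 to 26 nt from 3 MS and 3 LW libraries was analysed. The authors removed adapters and other RNA classes with ACGT101-miR (version not stated), aligned reads with BLAST to miRBase 21.0 and Sscrofa 10.2, and merged miRNAs of identical sequence. The deposited signal is the reads of the most abundant sequence, scaled by total mappable reads, to a target not stated. Up to 20 reads, 93.3% to 95.7% of a library's values lay within 0.1 read of a whole number of reads. On these recovered reads edgeR 4.0.16 called 345 and DESeq2 1.42.0 called 347 of 548 miRNAs. The main test was limma 3.58.1 (R 4.3.3), eBayes with trend, pseudocount 1, filter of 10 on the higher breed mean, tested on simulated data. Ratios and shares were computed in Python 3.11.15. The alternatives were pseudocounts, scalings, filters, no trend, a replicate block, a GC correction (loess, span 0.75), count tests, the unadjusted test of the study's methods and each library left out.

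Named miRNAs were the 6 members, hairpins overlapping theirs, up to 3 of the most abundant of each list and the nearest patterns. Other miRNAs named were chosen after their values were seen. Members and lists were chosen with earlier results of these data known. MiR-25 and miR-106b were not analysed here, nor were 4 lines of the table.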

Additional observations from a re-analysis of the deposited data

How the results depend on the processing

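Over the alternatives other than leaving out a library, the log2 fold change ranged over 1.11 to 3.11 for miR-451-5p, 1.11 to 3.70 for miR-144-3p, -0.0048 to 2.54 for miR-144-5p and 0.26 to 1.26 for miR-486-2-5p. The GC correction gave the lowest value for the first 3 and the highest for miR-486-2-5p. With it, miR-144-3p was not called (1.11), miR-144-5p turned to -0.0048 and miR-486-2-5p was called (1.26), and with the replicate block and the GC correction together the values were the same, 1.11, -0.0048 and 1.26, with miR-144-3p called. The unadjusted equal-variance test of the study's methods was run here on all 548 miRNAs, and none of the 3 cluster arms passed. Its values are log2 ratios of mean normalized reads without a pseudocount, unlike the limma values. They were 2.82 for miR-451-5p (p = 0.0586 by that test, which is not an exact or permutation test), 3.52 for miR-144-3p and 2.44 for miR-144-5p. The count of calls over the table, 341, was 122 of 179 with a filter above 1000 normalized reads, where fewer miRNAs were tested. Both arms of miR-144 were left out by that filter. Scaling to equal sums moved the median change over the table to 0.54 (log2), against 0.11, and gave 232 higher and 118 lower calls, against 187 and 154. The replicate block alone gave 332 calls and left the call of each of the 4 arms in place, and same-numbered MS and LW libraries did not deviate together (r = 0.0047, -0.21 and 0.097 for replicates 1, 2 and 3), so the numbers were not taken to pair the fetuses. Without each library in turn the count of calls was 300 to 365, and the log2 fold changes were 2.24 to 3.06 for miR-451-5p, 2.56 to 4.0 for miR-144-3p, 1.47 to 2.74 for miR-144-5p and 0.07 to 0.59 for miR-486-2-5p, with no call of the 4 arms changed. The differences in log2 ratio were then 0.12 to 1.0 for miR-144-3p to miR-451-5p, -0.77 to -0.31 for miR-144-5p to miR-451-5p, 0.59 to 1.58 for miR-144-3p to miR-144-5p and -2.99 to -1.90 for miR-486-2-5p to miR-451-5p, and the ratio of cluster shares was 6.74 to 11.5. Neither ratios nor shares were corrected for GC content. The share ratio was 8.68 without the 10 most abundant miRNAs in the denominator and 7.42 for the deposited sums. Depth limits the 2 rare 3p arms, where 1 read decides a value, and 3 fetuses of each breed limit every test of a ratio or share to p of at least 0.10.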

Other observations

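MiR-15a-5p and miR-15b-5p, 2 members of the red cell list that belong to one family, were called in opposite directions. MiR-15a-5p averaged 2186 ± 279 normalized reads in MS and 486 ± 68.6 in LW, and miR-15b-5p 1345 ± 323 in MS and 4063 ± 565 in LW (SD, n = 3 each). The log2 fold changes were 2.17 and -1.61 (limma, adjusted p = 3.13e-05 and 0.000265), and after the GC correction they were 1.04 and -2.30 (limma, adjusted p = 0.00337 and 7.05e-05). MiR-185-5p, of the same list, averaged 327 ± 38.3 normalized reads in MS and 3043 ± 697 in LW (SD, n = 3 each), and its fold change was -3.19 on the log2 scale (limma, adjusted p = 3.28e-06). Scaling to equal sums changed the direction of none of these 3. They were chosen after their values were seen.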
